A study of Homo sapiens with 12 samples.

Results

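The integrin and laminin genes of TIGK cells were examined. They comprised every protein-coding row of the count table whose symbol names an integrin alpha chain, an integrin beta chain, or a laminin alpha, beta, or gamma chain. A total of 38 genes of the 58735 rows met this rule, including 18 integrin alpha genes, 8 integrin beta genes, and 12 laminin genes, of which 5 encode alpha, 4 beta, and 3 gamma chains. TIGK cells are human gingival keratinocytes that were immortalized with telomerase (hTERT transfected), and the whole study used this single line. All groups were kept at 48 mM glucose in a base medium without Arg. L-Arginine (Arg, 500 μM) was added or left out, and RNA was taken from cells in 6-well plates after 24 or 48 h, with 3 libraries (A, B, and C) in each of the 4 groups.

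Integrins are receptors made of an alpha and a beta chain that anchor cells to the matrix outside them and signal through the adhesions they form. Laminins are trimers of an alpha, a beta, and a gamma chain and are the main adhesive proteins of the basement membrane under an epithelium. Basal keratinocytes hold on to laminin-332 (with chains from LAMA3 and LAMB3) through integrin alpha 6 beta 4 in hemidesmosomes and integrin alpha 3 beta 1 in focal adhesions, and laminin-511 (alpha 5, beta 1, gamma 1) is a further component of that membrane.

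The 12 libraries held between 16542243 and 19040964 counts, and the 38 genes took 0.411 to 0.485% of them. The label of the cells was checked against marker genes. The basal keratinocyte markers KRT5, KRT14, KRT17, CDH3, and TP63 summed to 35608 to 50121 TPM (counts divided by exonic length and scaled to the same total in each library), while 5 leukocyte markers summed to 3.65 to 7.80 TPM. The sum of 6 fibroblast markers was 10.2 to 17.7 TPM at 24 h and 25.6 to 34.9 TPM at 48 h. Among them, DCN had 9738 counts, COL1A1 3957, COL3A1 14, and COL1A2 2 in all libraries together. Library B of the control at 48 h stood apart from A and C of its group, with a chi-square per degree of freedom of 20.9 and 23.9 against 3.66 between A and C. It also had the highest share of mitochondrially encoded counts (1.55%). Results that rest on this library are given with and without it. The labels do not say whether A, B, and C were separate cultures, so the p-values measure only the spread between these libraries, which may be technical.

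Levels were compared between genes in TPM. ITGA6 had the highest level of all members (468.5 ± 64.1 TPM, SD, n = 12 libraries). Among the other members described, its partner ITGB4 (280.7 ± 21.8), ITGB1 (208.9 ± 13.2), LAMB3 (188.5 ± 22.1), and ITGA3 (176.6 ± 23.5) followed. The laminin-511 chains LAMC1 (148.7 ± 18.0 TPM), LAMB1 (123.5 ± 16.6), and LAMA5 (102.3 ± 40.4) came next, and then LAMA3 (61.5 ± 6.53). ITGA6 was above ITGB4 in 12 of 12 libraries, whereas LAMB3 was above ITGA3 in 6, so that these neighbours could not be ordered. The chains of the epithelial laminin receptors therefore led the table.

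Together, ITGA6 and ITGA3 made up 86.3 to 89.7% of the TPM of all integrin alpha genes, and ITGB4 and ITGB1 made up 91.3 to 94.1% of that of the beta genes. A middle range held ITGAV (34.7 ± 5.19 TPM), whose product joins several beta chains, and ITGA5 (29.8 ± 6.50), the fibronectin receptor chain. LAMC3 (18.8 ± 1.99), ITGB6 (14.5 ± 6.32), ITGB5 (14.4 ± 3.88), LAMB2 (11.9 ± 5.41), the E-cadherin receptor chain ITGAE (11.7 ± 1.37), LAMA1 (8.42 ± 0.770), ITGB8 (8.30 ± 1.76), and ITGA2 (7.36 ± 2.78), a chain of the collagen receptor alpha 2 beta 1, followed. ITGB6 exceeded ITGB5 in 6 of 12 libraries, and LAMB2 exceeded ITGAE in 6 of 12.

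The lowest genes that could still be tested were ITGA2B (2.16 TPM), LAMA2 (1.27), ITGB2 (1.12), ITGA7 (0.752), LAMB4 (0.544), ITGA1 (0.310), and ITGAX (0.249). The other 11 genes did not pass the filter on low counts in any comparison. Summed over the 12 libraries, these were ITGA4 with 81 counts, ITGA10 with 64, LAMA4 with 42, ITGA9 with 33, ITGA11 with 17, ITGAM and ITGB7 with 12 each, ITGAD with 5, ITGB3 with 2, and ITGAL and ITGA8 with 1 each. Most of these chains belong to receptors of blood cells, muscle, or connective tissue. The filter left 25 members to test at 24 h and 27 at 48 h and across time. LAMB4 and ITGAX were not tested at 24 h.

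**Figure D1:**
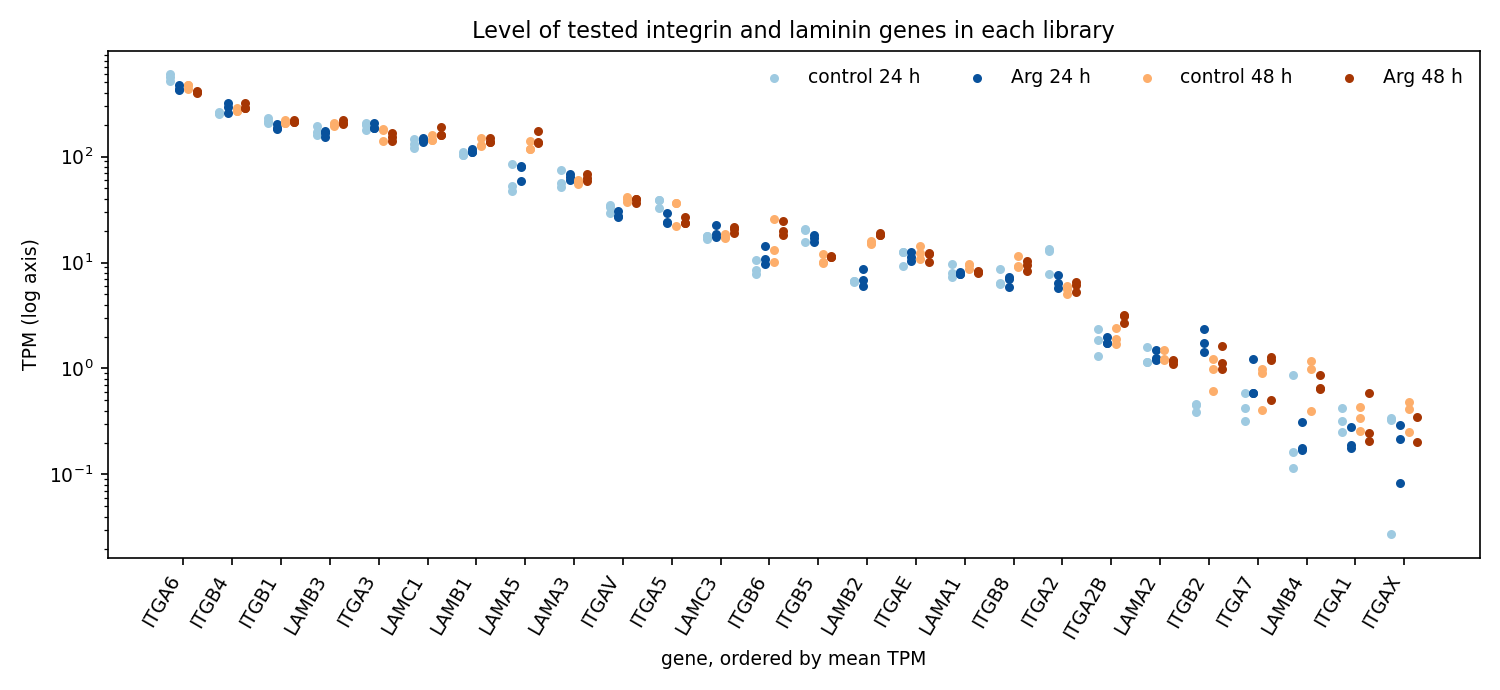
Level of tested integrin and laminin genes in each of the 12 libraries, in TPM on a log axis, with the genes ordered by their mean and the points coloured by group (a value of 0 is not drawn). ITGA6 lies highest, and the levels span from 468.5 TPM for ITGA6 to 0.249 TPM for ITGAX.

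The sequences before the start sites of LAMA3, LAMB3, ITGA2, ITGA5, and ITGA6 are shown, because the first pair encodes laminin-332 chains and the other genes fell with Arg at 24 h. They come from RefSeq (GRCh38.p14), which held start sites for 26 of the 38 genes (33 windows of the 250 bases before the start), and are shortened where an annotated exon lies in the window. RefSeq gave 3 windows for LAMB3 and 2 for ITGA6, of which the LAMB3 window with an AP-1 motif and the first ITGA6 window are printed. Each reads 5′ to 3′ along the gene, and capitals mark TGANTCA, the AP-1 motif, and GGGCGG, the GC box, on either strand. TGANTCA is its own reverse complement apart from the middle base, and the 2 motifs do not overlap in these sequences.
LAMA3: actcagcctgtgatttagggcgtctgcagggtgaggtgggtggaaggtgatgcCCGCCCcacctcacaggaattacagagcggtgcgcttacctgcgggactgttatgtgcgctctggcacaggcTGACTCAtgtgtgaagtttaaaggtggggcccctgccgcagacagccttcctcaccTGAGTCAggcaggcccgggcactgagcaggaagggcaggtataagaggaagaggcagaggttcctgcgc
LAMB3: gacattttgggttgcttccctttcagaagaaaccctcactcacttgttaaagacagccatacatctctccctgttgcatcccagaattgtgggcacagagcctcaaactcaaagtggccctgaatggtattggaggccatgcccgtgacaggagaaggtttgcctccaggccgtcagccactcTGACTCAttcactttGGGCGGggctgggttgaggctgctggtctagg
ITGA2: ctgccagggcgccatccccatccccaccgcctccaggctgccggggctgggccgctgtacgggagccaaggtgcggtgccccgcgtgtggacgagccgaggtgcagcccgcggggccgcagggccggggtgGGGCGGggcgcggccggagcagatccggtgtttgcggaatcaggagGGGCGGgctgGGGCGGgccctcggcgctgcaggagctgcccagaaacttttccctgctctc
ITGA5: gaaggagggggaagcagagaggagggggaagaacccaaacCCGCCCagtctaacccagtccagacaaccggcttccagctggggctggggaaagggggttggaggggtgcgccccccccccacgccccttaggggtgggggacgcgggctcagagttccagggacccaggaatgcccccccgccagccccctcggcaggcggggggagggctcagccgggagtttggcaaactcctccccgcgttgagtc
ITGA6: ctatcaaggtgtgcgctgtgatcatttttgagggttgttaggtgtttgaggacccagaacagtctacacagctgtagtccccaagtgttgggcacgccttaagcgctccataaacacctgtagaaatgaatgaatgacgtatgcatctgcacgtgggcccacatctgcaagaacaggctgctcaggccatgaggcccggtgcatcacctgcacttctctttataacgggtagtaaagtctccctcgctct

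The LAMA3 sequence (chr18:23872770-23873019, plus strand) held TGANTCA at 2 positions, starting at bases 126 and 182, and the LAMB3 sequence (chr1:209651395-209651624, minus strand) held it at base 184, while the other LAMB3 windows held none. These were the 2 windows of 33 with this motif (6.06%), against 6.57% of 35116 windows of the same length of all genes. The sequences of ITGA2 (chr5:52989102-52989339, plus strand), ITGA5 (chr12:54419267-54419516, minus strand), and ITGA6 (chr2:172427086-172427335, plus strand) held no such match in these windows. GGGCGG stood at 3 places in the ITGA2 sequence and at 1 place in each of those of ITGA5, LAMA3, and LAMB3. The ITGA6 window that is not printed held it at 3 places, and 17 of the 33 windows held it (51.5%), against 42.6% of all windows. A match describes only the letters, and its absence says only that they are not in the window.

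The first comparison asked what Arg changed after 24 h. With Arg, the integrin alpha genes ITGA2, ITGA5, and ITGA6 fell and the beta gene ITGB2 rose, while no laminin gene passed the test. Fold changes are log2 values of Arg against control from edgeR's quasi-likelihood test, with p adjusted by the Benjamini–Hochberg method over 14279 genes. At an adjusted p under 0.05, 1 of 25 members was higher and 3 were lower, against 2.79% of all tested genes higher and 3.84% lower. At an unadjusted p under 0.05, 2 members were higher and 6 lower, against 10.8% and 11.9% of all genes. The median log2 fold change was −0.07 over the members, with 10 of 25 above 0, and 0.0030 over all genes.

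ITGA2 (chr5:52989326-53094779, plus strand, GRCh38) encodes the alpha chain of the collagen receptor alpha 2 beta 1. In CPM, which scales the counts to library size but not to gene length, it stood at 29.7, 16.7, and 28.7 in control libraries A, B, and C and at 16.2, 12.1, and 13.9 with Arg. The groups did not overlap, but control library B lay close to the highest Arg library. The log2 fold change was −0.83 ± 0.18 (SE; edgeR, adjusted p = 0.00972). This call was lost without control library A or without Arg library B, and the log2 fold change was −1.06 without control library B.

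ITGA5 (chr12:54395261-54419460, minus strand) encodes the alpha chain of the fibronectin receptor alpha 5 beta 1. Its level was 82.7, 66.1, and 84.1 CPM in the control libraries and 48.6, 59.6, and 49.9 CPM with Arg, with no overlap. The log2 fold change was −0.56 ± 0.11 (SE; edgeR, adjusted p = 0.00472), and the call held without any single library.

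ITGA6 (chr2:172427354-172506282, plus strand), the laminin receptor chain with the highest level, stood at 1042, 916, and 1125 CPM in the control and 831, 765, and 748 CPM with Arg. Every Arg library was below every control library. The log2 fold change was −0.40 ± 0.08 (SE; edgeR, adjusted p = 0.00840), and the call was lost without Arg library C or without control library C. The other laminin-binding alpha genes gave no call, with log2 fold changes of −0.08 ± 0.08 for ITGA3 (adjusted p = 0.641) and 0.80 ± 0.45 for the muscle chain ITGA7 (adjusted p = 0.308).

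ITGB2 (chr21:44885953-44931989, minus strand) encodes the beta chain that leukocyte integrins share. It was near the lower end of what could be tested, with 16, 15, and 13 counts in the control libraries and 57, 74, and 49 counts with Arg. In CPM these were 0.867, 0.847, and 0.753 against 3.20, 4.31, and 2.63, so the groups lay far apart. The log2 fold change was 2.03 ± 0.34 (SE; edgeR, adjusted p = 0.00189), a 4.07-fold higher level, and the call held without any single library. The alpha chains that pair with beta 2 were almost without counts: ITGAL had 1 and ITGAD 5 in all libraries together, ITGAM had 1 in the control and 0 with Arg at 24 h, and ITGAX had 1, 11, and 12 in the control and 10, 7, and 3 with Arg. The summed leukocyte markers were 4.48 to 7.80 TPM in the control and 4.38 to 5.70 TPM with Arg at 24 h, with 28 counts of PTPRC in all 12 libraries. Of the 2 leukocyte markers that could be tested at 24 h, 1 was higher and 1 lower with Arg at an unadjusted p under 0.05, and none passed after adjustment. Their part in the ITGB2 result was not tested.

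The beta chains of the keratinocyte receptors gave no call at 24 h. ITGB1, the partner of alpha 2, alpha 3, and alpha 5, stood at 353, 348, and 392 CPM in the control and at 329, 295, and 307 CPM with Arg. The groups did not overlap, with a log2 fold change of −0.23 ± 0.08 (SE; edgeR, adjusted p = 0.0848). ITGB4, the partner of alpha 6, was at 491, 462, and 511 CPM and 476, 577, and 537 CPM with Arg, which overlapped (log2 fold change 0.12 ± 0.08, adjusted p = 0.421). The TPM ratio of ITGB4 to ITGA6 was 0.439 to 0.488 in the control and 0.553 to 0.729 with Arg, without overlap. At 48 h this ratio did not overlap either, at 0.576 to 0.662 in the control and 0.686 to 0.777 with Arg. Its divisor ITGA6 was itself lower with Arg without overlap at both times, so the ratio is not a separate result.

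Among the laminin-332 chains, LAMA3 was at 235, 204, and 311 CPM in the control and 254, 270, and 239 CPM with Arg (0.02 ± 0.11, edgeR, adjusted p = 0.931). LAMB3 was at 225, 203, and 262 CPM and at 196, 219, and 212 CPM with Arg (−0.14 ± 0.09, adjusted p = 0.389). Both overlapped, and neither gave a call. LAMA1 (−0.10) and LAMA5 (0.20) gave no call either. LAMA5 was called without control library B, at 0.47 (edgeR, adjusted p = 0.0105). Without that library, 2 members were higher (ITGB2 and LAMA5) and 5 lower, among them ITGA2, ITGA5, ITGA6, and ITGB1, against 4.42% and 6.02% of all genes in that fit.

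The members in which the groups did not overlap were also counted. At 24 h, all Arg libraries were above all control libraries in 2 members (ITGB2 and LAMB1) and below them in 4 (ITGA2, ITGA5, ITGA6, and ITGB1), against 12.9% and 13.4% of all tested genes. The share of mitochondrially encoded counts also differed between the groups, at 1.20 to 1.30% in the control and 0.624 to 0.802% with Arg at 24 h. The sum of 7 suprabasal keratinocyte markers overlapped, at 1005 to 1808 TPM in the control and 1397 to 2142 TPM with Arg. The part of either in these results was not tested. In RNA from whole wells, fewer cells of a type and less RNA per cell cannot be told apart.

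**Figure D2:**
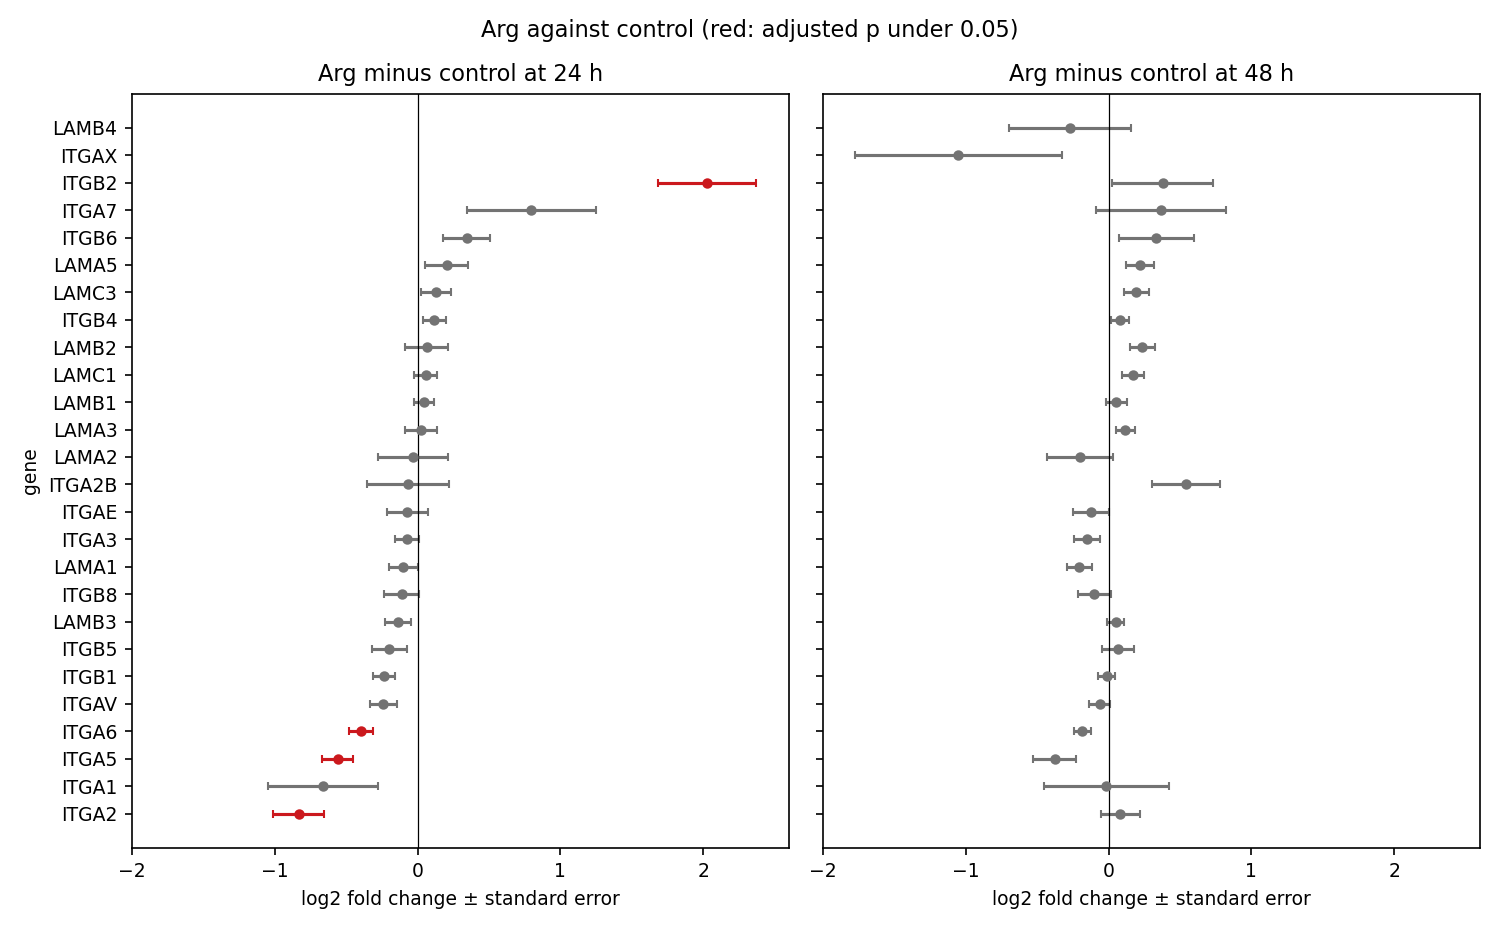
Log2 fold change of Arg against control with its standard error for tested integrin and laminin genes at 24 h (left) and 48 h (right), with red points for an adjusted p under 0.05. At 24 h, ITGB2 lies at 2.03 and ITGA2, ITGA5, and ITGA6 lie at −0.83, −0.56, and −0.40, and no point is red at 48 h.

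After 48 h, no integrin or laminin gene differed between Arg and control at an adjusted p under 0.05. Of 27 members tested, 0 were higher and 0 lower, against 0% and 0.117% of the 14562 genes. DESeq2 also called 0 members at 48 h. At an unadjusted p under 0.05, 5 members were higher (LAMB2, ITGA2B, LAMC3, LAMC1, and LAMA5) and 4 lower (among them ITGA6, ITGA5, and LAMA1), against 5.94% and 7.49% of all genes. The libraries did not overlap in 3 members that were higher with Arg (ITGA2B, LAMB2, and LAMC3) and in 4 that were lower (among them ITGA6, LAMA1, and LAMA2), against 8.56% and 8.51% of all genes. The members' median was 0.05 on the log2 scale, with 14 of 27 above 0, and the median of all genes was 0.0018.

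ITGA5 and ITGA6 had an unadjusted p under 0.05 and lower values with Arg at both times. ITGA5 was at 72.7, 44.1, and 71.3 CPM in control libraries A, B, and C at 48 h and at 46.2, 46.9, and 52.1 CPM with Arg. Control library B was the lowest of the 6, and the log2 fold change was −0.38 ± 0.15 (SE; edgeR, adjusted p = 0.310). ITGA6 was at 805, 742, and 793 CPM in the control and 676, 711, and 680.5 CPM with Arg, without overlap (−0.18 ± 0.06, edgeR, adjusted p = 0.218).

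Library B of the 48 h control decided this result. Without it, 3 of 27 members were higher and 4 were lower at an adjusted p under 0.05, while the share of all genes called went to 7.76% higher and 8.17% lower. The higher ones were ITGB6 (0.84, edgeR, adjusted p = 0.000177), a partner of alpha V in epithelia, and the laminin-511 chains LAMA5 (0.31, adjusted p = 0.00569) and LAMC1 (0.24, adjusted p = 0.0137). The lower ones included ITGA5 (−0.57, adjusted p = 1.19e-05), ITGA3 (−0.26, adjusted p = 0.00450), and ITGA6 (−0.22, adjusted p = 0.00531). The suprabasal markers, among them KRT13 and KRT10, were also high in control library B. They summed to 2806, 6473, and 2622 TPM in control libraries A, B, and C and to 6263, 5149, and 5025 TPM with Arg, and their part in the result was not tested.

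The main beta chains again gave no call at 48 h, and their groups overlapped. ITGB1 was at 327, 349, and 325 CPM in the control and 324, 343, and 327 CPM with Arg (−0.01 ± 0.06, edgeR, adjusted p = 0.950). ITGB4 was at 480.1, 508, and 473 CPM in the control and 499, 504, and 547 CPM with Arg (0.08 ± 0.06, adjusted p = 0.591). ITGA2, which fell at 24 h, was at 11.8, 10.5, and 12.2 CPM in the control and 10.7, 12.5, and 13.3 CPM with Arg at 48 h, with a log2 fold change of 0.08 ± 0.14 (SE; edgeR, adjusted p = 0.828). ITGB2 had 21, 42, and 32 counts in the control and 38, 29, and 49 with Arg, and the groups overlapped (0.38 ± 0.35, adjusted p = 0.674).

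The groups overlapped at 48 h in LAMA3 and LAMB3 too. LAMA3 was at 222, 213, and 225 CPM in the control and 221, 239, and 258 CPM with Arg (0.12 ± 0.07, edgeR, adjusted p = 0.471). LAMB3 was at 241, 254, and 243 CPM in the control and 245, 254, and 267 CPM with Arg (0.05 ± 0.06, adjusted p = 0.749).

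Whether the effect of Arg differed between the times was tested as an interaction over all 12 libraries. No member passed at an adjusted p under 0.05, against 0.0132% of 15148 genes, and 4 of 27 members had an unadjusted p under 0.05, against 6.87%. These were ITGA2 (0.92 ± 0.25 for 48 h minus 24 h, edgeR, adjusted p = 0.365), ITGB2 (−1.64 ± 0.48, adjusted p = 0.452), ITGB1 (0.22 ± 0.10, adjusted p = 0.704), and ITGA6 (0.22 ± 0.10, adjusted p = 0.722). The calls at 24 h are therefore not shown to be specific to that time. ITGA2 did pass without control library B at 24 h (1.15, adjusted p = 0.0238).

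**Figure D3:**
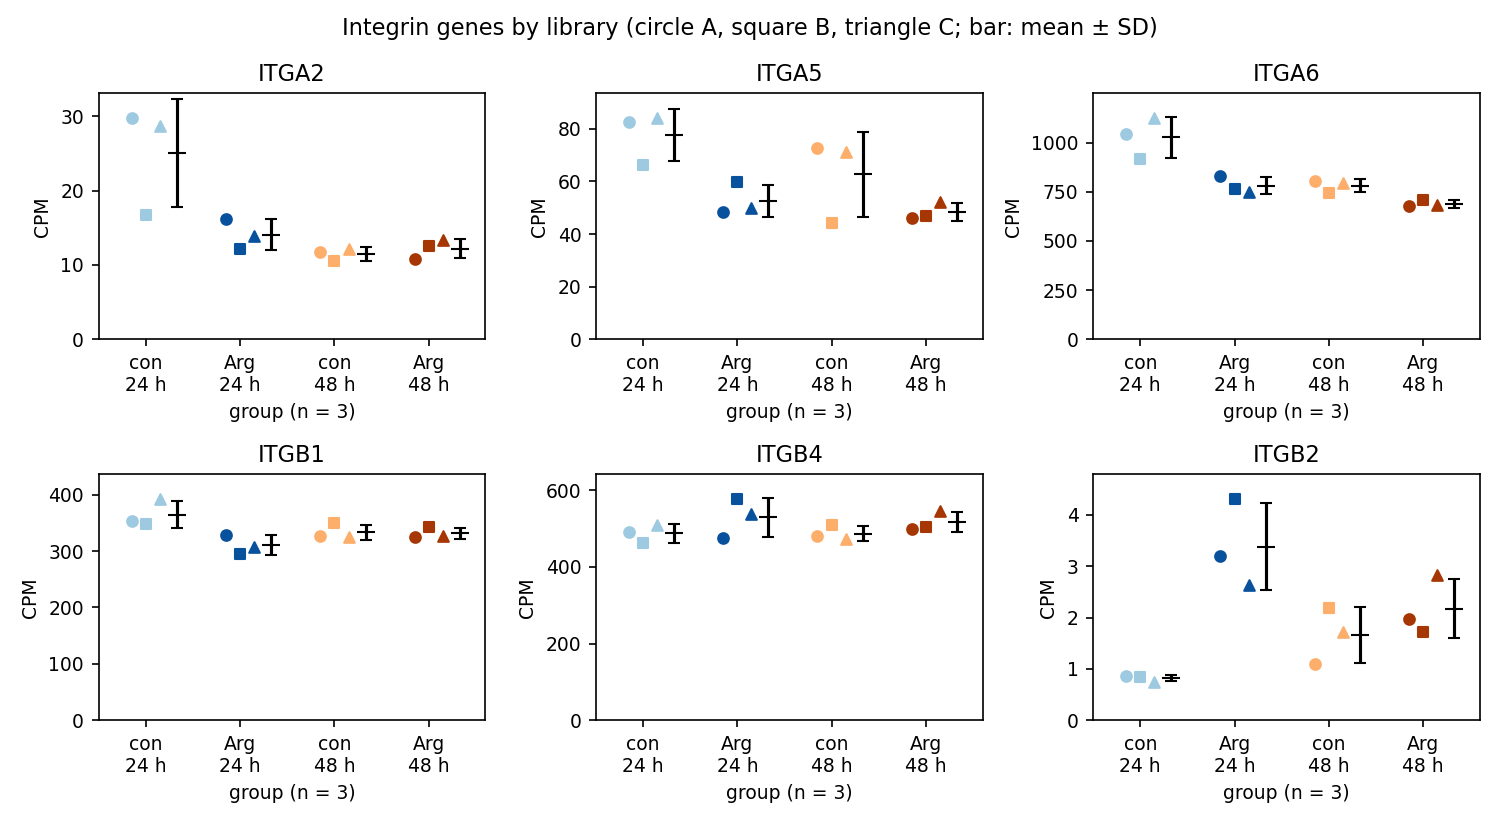
CPM of 6 integrin genes in each library of the 4 groups, with the mean and SD of 3 libraries drawn beside the points. ITGA2, ITGA5, and ITGA6 are lower and ITGB2 is higher with Arg at 24 h, and control library B of ITGA5 at 48 h lies at 44.1 CPM, below the other control libraries.

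The same model compared 48 h with 24 h, and more members moved with time than with Arg. The same held for all genes, and the comparisons of Arg with control came from separate fits at each time. In the control, 6 members rose and 5 fell at an adjusted p under 0.05, against 12% and 12.4% of 15148 genes. With Arg, 7 rose and 3 fell, against 11.3% and 11.5% of all genes. The median over the members was 0.03 in the control and 0.0019 with Arg. These comparisons use the same libraries as those of Arg against control, so they are not independent of them.

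Of the laminin-332 chains, LAMA3 gave no call with time in either condition (−0.18 ± 0.11 and −0.09 ± 0.11). LAMB3 rose with Arg (0.29 ± 0.08, edgeR, adjusted p = 0.0156) and gave no call in the control (0.10 ± 0.08, adjusted p = 0.431).

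LAMA5, LAMB1, and LAMB2, which encode chains of laminin-511 and laminin-521, rose in both conditions. LAMA5 was at 214, 328, and 195 CPM in the control at 24 h and at 444, 527, and 431 CPM at 48 h. With Arg it was at 225, 306, and 318 CPM and then at 496, 504, and 635 CPM, so no 24 h library reached a 48 h library. The log2 fold changes were 0.93 ± 0.16 (edgeR, adjusted p = 0.000335) and 0.94 ± 0.15 (adjusted p = 0.000290). LAMB2, the beta chain of laminin-521, went from 12.7 ± 0.355 CPM (SD, n = 3) to 27.6 ± 0.966 in the control and from 13.3 ± 2.56 to 32.6 ± 0.402 with Arg. Its log2 fold changes were 1.12 ± 0.12 (adjusted p = 1.10e-05) and 1.29 ± 0.12 (adjusted p = 1.36e-06). LAMB1 rose by less, by 0.24 ± 0.07 in the control (adjusted p = 0.0168) and 0.26 ± 0.07 with Arg (adjusted p = 0.0137), and its partner LAMC1 gave no call (0.06 ± 0.08 and 0.18 ± 0.08). The control call of LAMB1 was lost in fits that included those without control library B at 48 h or control library A at 24 h. It was also lost with a correction for gene length.

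Within a library, the TPM ratio of LAMA3 to LAMA5 was 0.604 to 1.56 in the 24 h control and 0.393 to 0.509 in the 48 h control. With Arg it was 0.733 to 1.10 at 24 h and 0.396 to 0.462 at 48 h, so all 48 h libraries were below all 24 h libraries. In this ratio, control library B at 24 h was the lowest of its group. The TPM ratio of LAMB3 to LAMB1 and LAMB2 together overlapped between the times. It was 1.38 to 1.77 at 24 h and 1.26 to 1.43 at 48 h in the control. With Arg it was 1.331 to 1.414 at 24 h and 1.310 to 1.335 at 48 h.

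**Figure D4:**
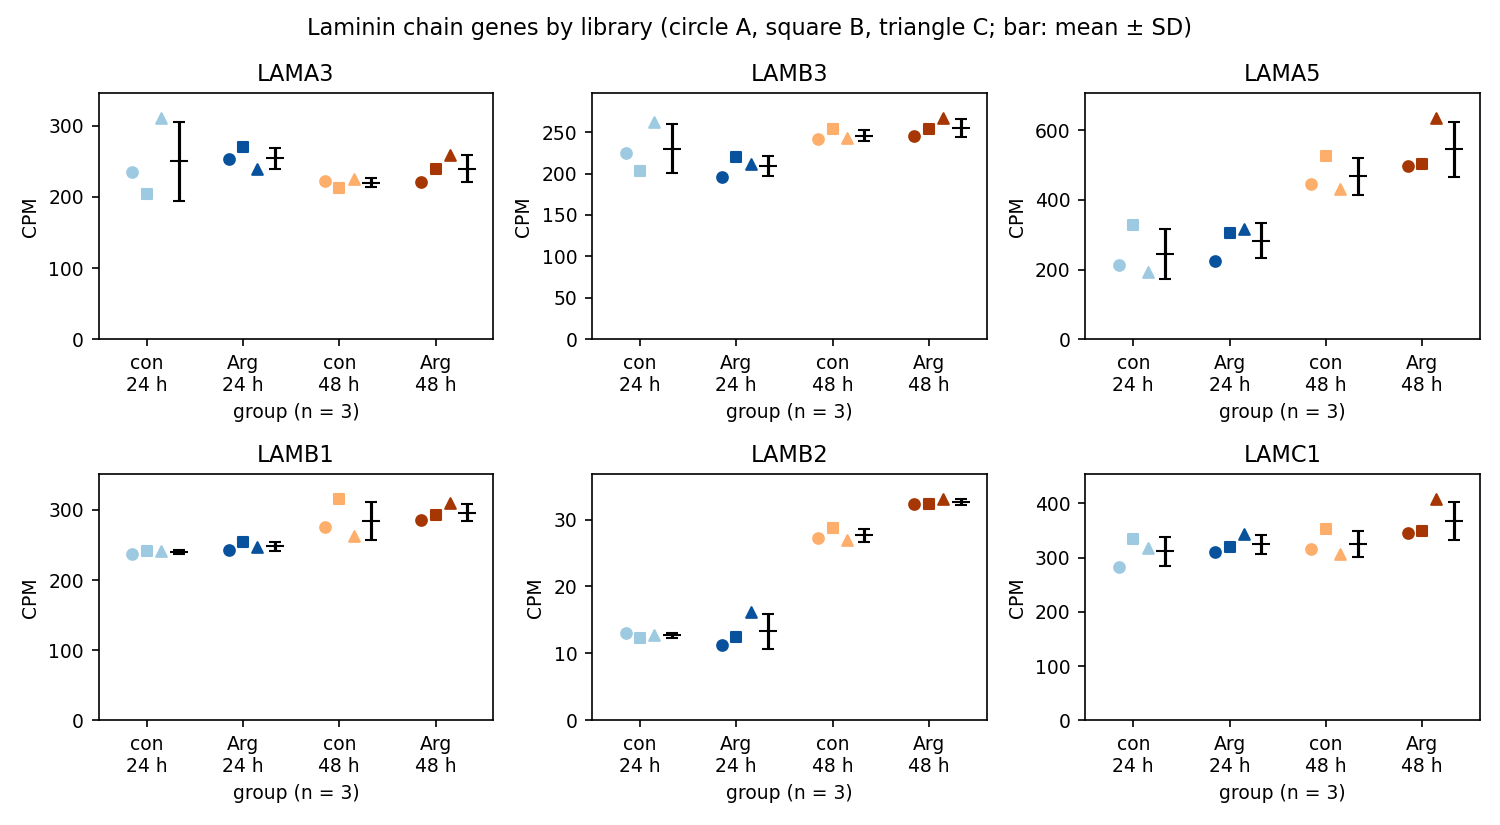
CPM of the laminin genes LAMA3, LAMB3, LAMA5, LAMB1, LAMB2, and LAMC1 in each library of the 4 groups, with the mean and SD of 3 libraries. LAMA5 and LAMB2 are higher in all 48 h libraries than in all 24 h libraries.

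**Figure D5:**
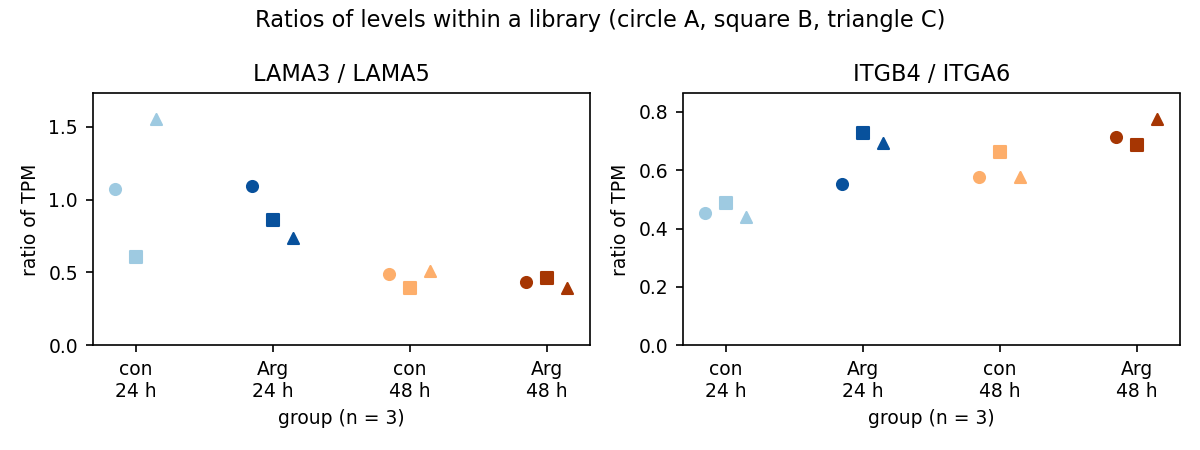
Ratio of TPM within each library for LAMA3 to LAMA5 (left) and ITGB4 to ITGA6 (right), with 3 libraries per group. The LAMA3 to LAMA5 ratio is at least 0.604 in all 24 h libraries and at most 0.509 in all 48 h libraries.

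Among the integrins, 4 alpha or beta genes fell with time in the control and 2 of them also with Arg. ITGB5, the beta chain of the vitronectin receptor alpha V beta 5, went from 33.8 ± 5.96 to 18.0 ± 1.79 CPM in the control and from 29.5 ± 2.07 to 18.9 ± 0.136 CPM with Arg (log2 fold changes −0.91 ± 0.12, edgeR, adjusted p = 6.23e-05, and −0.65 ± 0.12, adjusted p = 0.000972). ITGA3 fell by 0.33 on the log2 scale in the control (adjusted p = 0.0130) and by 0.41 with Arg (adjusted p = 0.00373). The control call of ITGA3 held in 3 of 6 fits that left out a library, and its call with Arg held in 6 of 6. ITGA2 fell in the control, from 25.0 ± 7.23 to 11.5 ± 0.882 CPM (−1.13 ± 0.18, adjusted p = 0.000201). With Arg, where it was already at 14.1 ± 2.04 CPM at 24 h, ITGA2 gave no call (−0.21 ± 0.18, adjusted p = 0.438). ITGA6 likewise fell in the control (−0.40 ± 0.07, adjusted p = 0.000700), and its value with Arg was −0.18 ± 0.07 (adjusted p = 0.0797). The differences between these pairs are the interactions given above, none of which passed.

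The beta chains that join alpha V and are known to activate latent TGF-β passed the test in both conditions, but these calls depended on single libraries. ITGB8 rose by 0.40 ± 0.13 in the control (edgeR, adjusted p = 0.0248) and 0.42 ± 0.13 with Arg (adjusted p = 0.0233), and each call held in 3 of 6 fits that left out a library. ITGB6 rose by 0.79 ± 0.24 in each (adjusted p = 0.0223 and 0.0220), although its control libraries at 48 h were spread from 12.5 to 31.8 CPM, with library B the highest, and overlapped with 24 h. Without library B the control value of ITGB6 was 0.30 (adjusted p = 0.268), and each of its calls held in 3 of 6 such fits. ITGAV rose with Arg (0.37 ± 0.09, adjusted p = 0.00409) and gave no call in the control (0.19 ± 0.09, adjusted p = 0.111). Its call with Arg held in 6 of 6 fits that left out a library. The interaction of ITGAV did not pass (0.18 ± 0.12, edgeR, adjusted p = 0.829). ITGB2 rose in the control by 1.01 ± 0.36 (adjusted p = 0.0484), from at most 16 counts to at least 21 counts per library, but this call held in only 1 of 6 fits that left out a library and in 4 of 8 alternatives with all libraries.

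The calls on ITGB5, LAMA5, and LAMB2 in both conditions and on ITGA2 and ITGA6 in the control held without any single library and under every alternative with all libraries. So did those on ITGA3 and ITGAV with Arg. Without control library B at 48 h, LAMA5 and LAMB2 were the 2 members that rose in the control, against 7.82% of all genes. Without control library A at 24 h the number was also 2 (6.68% of all genes), and without control library C at 24 h it was 3 (7.04%). The summed suprabasal markers were higher at 48 h, going from 1005 to 1808 TPM in the 24 h control to 2622 to 6473 TPM in the 48 h control and from 1397 to 2142 TPM to 5025 to 6263 TPM with Arg. The fibroblast markers also summed higher at 48 h (25.6 to 34.9 TPM against 10.2 to 17.7), mostly from DCN and COL1A1. The endothelial markers summed to 0.395 to 1.45 TPM at 24 h and 2.01 to 3.47 TPM at 48 h, and the melanocyte markers to 0.962 to 1.84 TPM and 1.86 to 3.10 TPM. The part of these cells' markers in the changes with time was not tested.

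Genes that work with these receptors were read from lists by role. Of the 14 tested genes of other basement membrane proteins, 12 had a log2 fold change above 0 with time in each condition. At an adjusted p under 0.05, 8 rose and 0 fell in the control, against 12% and 12.4% of all genes, and 10 rose and 0 fell with Arg, against 11.3% and 11.5%, with medians of 0.58 and 0.66 against 0.013 and −0.00018 over all genes. Those called in both conditions included FREM2, of the Fraser complex that links epithelium and matrix (1.89 and 2.31), COL7A1, the collagen of anchoring fibrils (0.92 and 1.16), and HSPG2, perlecan (0.72 and 0.97). The type IV collagen gene COL4A5 rose by 1.02 in the control and FRAS1 by 1.15 with Arg. At 24 h, Arg left 13 of these 14 genes without a call, and NID2, a nidogen that bridges laminin and type IV collagen, fell from 12.3 to 4.70 CPM (−1.40 ± 0.25, edgeR, adjusted p = 0.00297).

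Of 7 hemidesmosome genes, none was called at 24 h with Arg (median 0.15). With time, 1 of the 7 rose and 1 fell in the control, and 2 rose and 1 fell with Arg. Of all genes, 11.3 to 12.4% were called in each direction. The hemidesmosome medians with time were −0.056 in the control and −0.12 with Arg. The hemidesmosome plakin gene DST rose in the control (0.61) and with Arg (0.76), whereas CD151, a tetraspanin bound to the laminin-binding integrins, fell in the control (−0.28). Of 28 focal adhesion adaptors and kinases, 1 rose with Arg at 24 h, the actin cross-linker ACTN4 (0.31, adjusted p = 0.0353), which was named after its value was seen. The 4 that fell were TNS4, a tensin that binds integrin beta tails (−0.57, adjusted p = 0.00161), the focal adhesion kinase relative PTK2B (−0.56, adjusted p = 0.0202), FBLIM1 (−0.46, adjusted p = 0.00460), and the kindlin gene FERMT2 (−0.46, adjusted p = 0.0222). Over all tested genes, 2.79% were higher and 3.84% lower with Arg at 24 h. The median over the 28 genes was 0.06 against 0.0030 over all genes. With time, 6 of 28 rose and 5 fell in each condition, where 11.3 to 12.4% of all genes were called in each direction, led by TNS3 (0.69 and 0.61).

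Among 11 tested genes for other integrin ligands, fibronectin (FN1), the ligand of alpha 5 beta 1, rose with Arg at 24 h from 140 to 197 CPM (0.49 ± 0.11, edgeR, adjusted p = 0.0106), and tenascin C (TNC) fell from 14.4 to 8.11 CPM (−0.83 ± 0.18, adjusted p = 0.00879). At 24 h, 1 of the 11 was thus higher and 1 lower, against 2.79% and 3.84% of all tested genes. TNC also fell with time, by 1.71 on the log2 scale in the control and by 2.31 with Arg, while MFGE8, a ligand of alpha V integrins, rose (0.76 and 0.90). With time, 2 of the 11 rose and 2 fell in the control, and 3 rose and 3 fell with Arg. Of all genes, 11.3 to 12.4% were called in each direction. Of 13 laminin receptors outside the integrins and laminin-processing enzymes, BCAM, a receptor for laminin alpha 5, rose with Arg at 24 h (0.59 ± 0.15, adjusted p = 0.0260). Thus 1 of the 13 was higher and 0 lower, against the same shares of all genes at 24 h. With time, BCAM (0.87 and 0.71), the syndecan SDC3 (0.81 and 0.65), and the membrane protease MMP14 (0.74 and 0.56) rose in both conditions, and dystroglycan (DAG1) rose with Arg (0.40). The gelatinase gene MMP9 fell in the control (−1.24, adjusted p = 0.0416). In each condition 4 of the 13 rose and 1 fell with time, against 11.3 to 12.4% of all genes in each direction. No gene of any of the 5 lists was called with Arg at 48 h.

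Several members overlap other genes, and the strand setting of the counting is not stated, so reads of the overlapping parts could have been lost or shared. Overlaps with expressed protein-coding genes included those of LAMA5 with ADRM1 (41826 counts against 83978 of LAMA5 in all libraries), LAMB1 with DLD (28784 against 58087), ITGA1 with PELO on the same strand (7764 counts of PELO), ITGAE with HASPIN (6374 against 4524), and ITGB4 with GALK1 (2595 against 109741). ADRM1 had 3488 to 4335 counts per library in the 24 h control and 3081 to 3316 in the 48 h control. With Arg, ADRM1 had 3414 to 4016 counts at 24 h and 2962 to 3370 at 48 h. LAMA5 was higher at 48 h in both conditions, and the part of the overlap in this was not tested. ITGB2 overlaps an antisense gene with 20 counts and an intronic gene with 23 counts in all libraries, and the genes that overlap ITGA2, ITGA5, and ITGA6 had at most 82 counts.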

How the data were processed

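Transcripts were sequenced from TIGK cells grown at 48 mM glucose, in 4 groups of 3 libraries that differ in Arg (0 or 500 μM) and in time (24 or 48 h). The deposited values are raw gene counts that the authors made with fastp, STAR (GRCh38/hg38), and featureCounts, without normalization. Tool versions, the annotation release, and the strand setting are not given in the sources used here. All count columns were used, and 0 were left out. Libraries held 16542243 to 19040964 counts, and genes with few counts are the least precise.

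Arg and control were compared at each time with edgeR 4.0.16 in R 4.3.3 (TMM, filter on low counts, quasi-likelihood test, Benjamini–Hochberg adjustment over all tested genes). Time and interaction contrasts came from a model of all 12 libraries. The integrin and laminin rule and the lists of partner genes and markers were chosen with earlier results of these data known. CPM were scaled by TMM over the 12 libraries, and TPM used the exonic lengths in the table. The main edgeR fit of each comparison was first tested on simulated counts with known fold changes. The alternatives given below were not tested in this way. The smallest p that exact permutation of 3 against 3 libraries allows is 0.1.

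A gene among the members and a marker gene are counted but not reported here by name. All other members are named. Full statistics are given for members with an adjusted p under 0.05 at 24 or 48 h or an unadjusted p under 0.05 at both times, and for ITGB1, ITGB4, LAMA3, and LAMB3. From each partner list, at most 4 genes with an adjusted p under 0.05 were named in each comparison, by size of change, and ACTN4 at 24 h was named beside them. The GC box and the fit without both B control libraries were added after seeing the data. Alternatives were DESeq2 1.42.0, other scalings and filters, the replicate block, a length correction, all 12 libraries in a single model, and leaving out each library. Same-lettered Arg and control libraries of the same time did not deviate together (correlations −0.061 to 0.036), so the letters were not used as pairs in the main fits. Whether same-lettered libraries deviated together between 24 and 48 h was not tested.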

Additional observations from a re-analysis of the deposited data

Results flagged for a closer look

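The effect of Arg on 4 members differed between 24 and 48 h at an unadjusted p under 0.05, and none of them passed after adjustment over 15148 genes in edgeR's quasi-likelihood test with 3 libraries per group. Each value is the log2 effect at 48 h minus that at 24 h. It was 0.92 for ITGA2 (unadjusted p = 0.00164, adjusted p = 0.365), which was lower with Arg in all libraries at 24 h and overlapped at 48 h. It was −1.64 for ITGB2 (unadjusted p = 0.00283, adjusted p = 0.452), which was higher with Arg in all libraries at 24 h and overlapped at 48 h. For ITGB1 and ITGA6 the values were 0.22 (unadjusted p = 0.0327) and 0.22 (unadjusted p = 0.0492), with adjusted p of 0.704 and 0.722.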

How the results depend on the processing

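At 24 h, ITGA2, ITGA5, ITGA6, and ITGB2 passed under all 9 alternatives that kept all libraries. When each library was left out in turn, the number of members called ranged from 1 to 2 higher and from 2 to 5 lower at 24 h, and from 0 to 3 higher and from 0 to 4 lower at 48 h. For the interaction this range was 0 to 1 higher, and for time in the control 2 to 6 higher. Without a filter on low counts, 1 member was lower at 48 h (ITGA5, adjusted p = 0.00404 in edgeR) and 1 had a higher effect at 48 h than at 24 h (ITGA2). Leaving out both B control libraries, an alternative added after seeing the data, also gave 1 (ITGA2, 1.09). With the length correction, 3 members rose with time in the control (LAMA5, LAMB2, and ITGB6), and with the length correction and the replicate block also 3.

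The letters A, B, and C were shared between groups, and the labels do not say whether a letter pairs libraries. With the replicate block, the count at 24 h was 1 higher and 3 lower and the count at 48 h was 0 and 0. Over all genes at 48 h, edgeR called 0 higher and 17 lower, against 43 and 141 with the block, 41 and 144 with DESeq2, 199 and 374 without the filter, 4 and 37 with all 12 libraries in a single model, and 1152 and 1213 without control library B. At 24 h the 398 higher and 549 lower genes ranged from 126 to 647 and from 233 to 882 without single libraries. The interaction called 2 and 0 genes, 8 and 7 with DESeq2, 51 and 37 without the filter, and 64 and 39 without both B control libraries. With time, the block gave 5 members higher and 5 lower in the control and 8 and 3 with Arg.

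For Arg against control, LAMA3 and ITGB1, which gave no call, changed direction. LAMA3 at 24 h went to −0.0060 with the length correction and ranged from −0.11 to 0.21 without single libraries, and ITGB1 at 48 h ranged from −0.035 to 0.024. Some values with time that gave no call also changed direction when a library was left out, such as ITGA1 with Arg (0.61, reaching −0.017), ITGAX with Arg (−0.16, from −0.95 to 0.40), and LAMA3 in the control (−0.18, reaching 0.0031). ITGB1 passed at 24 h with all 12 libraries in a single model (adjusted p = 0.0473). The causes were not tested. Depth limits ITGB2 and the 11 members below the filter.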
